A study of Mus musculus with 4 samples.

Results

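Forkhead genes encode transcription factors that share a winged-helix DNA-binding domain and were examined in juvenile mouse testes labelled Znhit1_KO and CTRL. Members were chosen by symbol, as every gene of the deposited table named Fox, a letter from a to s and a number, with Foxj1 left out, which gave 43 of 55335 genes. The family was taken up with its differences between the groups already known, so those differences are given as a description and carry no test of their own. Poly(A) RNA came from testes at postnatal day 14, in 2 Znhit1_KO and 2 CTRL libraries, called replicates 1 and 2. The sample labels name testis as the tissue, while the series' design speaks of germ cells. The Znhit1 allele, any Cre driver, the strain and the CTRL genotype were not stated in the labels used, and neither was any litter or batch shared by replicates of the same number. The series asks how ZNHIT1, a subunit of the SRCAP chromatin remodeller that deposits H2A.Z, bears on gene expression.

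Forkhead proteins bind a short sequence, and their outputs differ by subfamily. FOXO proteins are held in the cytoplasm when AKT phosphorylates them and enter the nucleus when growth factor signalling is low. FOXM1 drives genes of mitosis, FOXA proteins open chromatin during endoderm development, and FOXC, FOXD and FOXF proteins pattern mesenchyme. In the mouse testis FOXO1 is required for maintenance of spermatogonial stem cells, FOXC2 marks a slowly dividing part of them, and FOXJ3 is required for spermatogenesis.

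Library totals lay between 129531714 and 157790457 estimated counts. Levels are given as CPM, counts scaled to the normalised size of each library. Znhit1 itself stood at 3.15 and 2.14 CPM in Znhit1_KO, against 17.3 and 31.9 CPM in CTRL, lower in both Znhit1_KO libraries. The 15 pachytene markers summed to 852 and 1242 CPM in Znhit1_KO, against 1640 and 3273 CPM in CTRL, and 16 Sertoli cell markers to 9233 and 7922 CPM in Znhit1_KO, against 6537 and 6790 CPM in CTRL. Sums of 10 leptotene and zygotene markers were 1555 and 2180 CPM in Znhit1_KO, against 2249 and 3055 CPM in CTRL. Leydig markers (11 genes, Sult1e1 at 0) summed to 487 and 510.2 CPM in Znhit1_KO, against 378 and 399.8 CPM in CTRL. Immediate early and heat shock genes (10) summed to 807 and 989.7 CPM in Znhit1_KO, against 595 and 589 CPM in CTRL. In this list the groups overlapped for the heat shock genes Hspa1a, Hspa1b and Dnajb1, the last with a log2 change of -0.08. Each of the other genes in it was higher without overlap. The 2 meiotic sums were lower, and the Sertoli sum, the Leydig sum and that of immediate early and heat shock genes higher, each without overlap between the groups. Their part in the forkhead values was not tested. In whole tissue, fewer cells of a type and less RNA per cell cannot be told apart.

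The testis held many forkhead transcripts at moderate levels and a long tail near 0. By the authors' TPM, which is scaled to transcript length, Foxo3 was the most abundant with a mean of 109 TPM over the 4 libraries. It was followed by the repressor gene Foxp4 (75.9), Foxj3 (68.4), Foxk2 (61.5), Foxm1 (60.1), Foxn3 (51.6) and Foxo1 (38.3). Foxo6 (29.2), Foxk1 (28.3), Foxp1 (27.4), Foxj2 (26.6), Foxn2 (25.6), Foxq1 (24.3) and Foxf1 (23.7) formed a plateau of similar means. Foxh1, a partner of SMAD proteins in nodal signalling (15.1), Foxo4 (13.5), Foxr1 (10.4), Foxs1 (8.41) and Foxc2 (4.70) were lower. Foxd2 (3.52), Foxi3 (3.11), Foxn4 (3.05) and Foxa2 (2.56) closed the 23 members with a mean of at least 1 TPM. Of the 22 pairs of neighbours in this order, 1 pair, Foxs1 over Foxc2, had ranges over the 4 libraries that did not touch, and 8 pairs kept their order in every library. Most neighbours in the order thus did not differ beyond their spread over libraries. As a subfamily the 4 FOXO genes summed to 246 and 173 TPM in Znhit1_KO, against 200.4 and 140.1 TPM in CTRL.

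**Figure D1:**
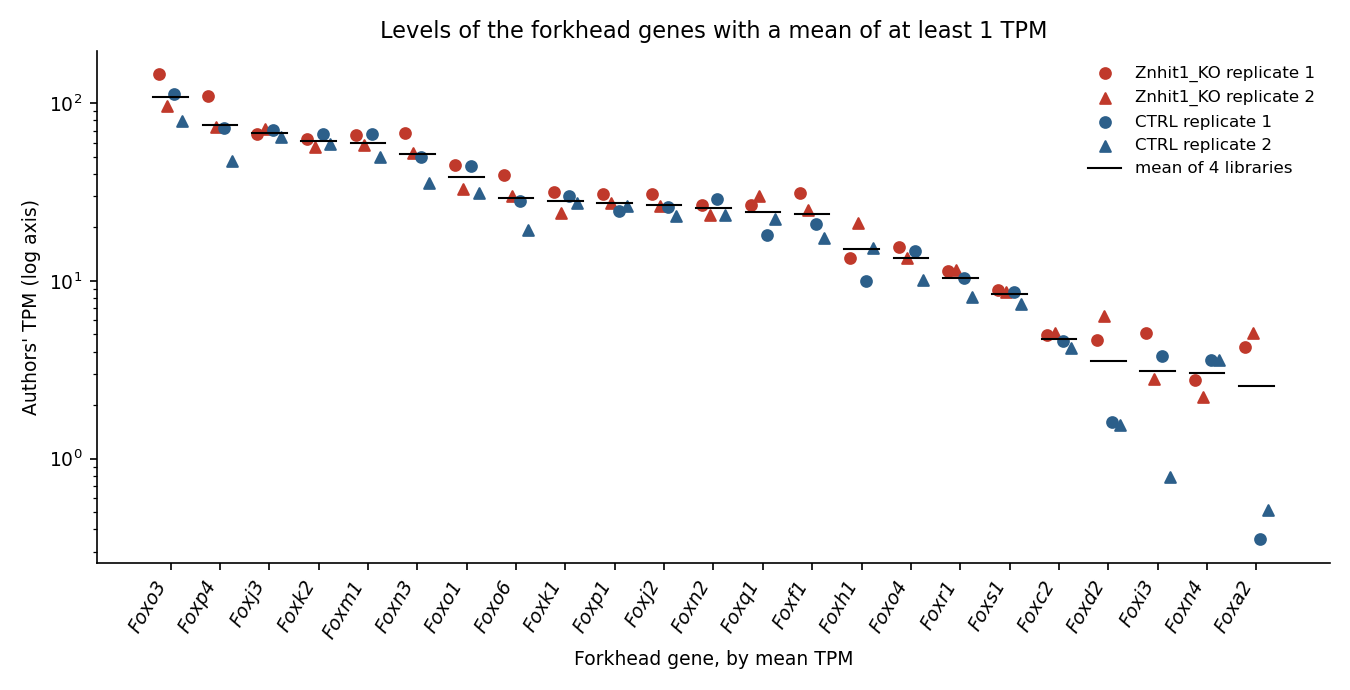
Authors' TPM on a log axis for the 23 forkhead genes with a mean of at least 1 TPM, ordered by mean; circles are replicate 1, triangles replicate 2, red Znhit1_KO, blue CTRL, and the black line is the mean of the 4 libraries. The groups lie far apart for Foxa2 and Foxd2, at the low end of the order, and close together for the abundant genes.

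Of the 43 members, 37 passed the filter on low counts and 6 did not: Foxn1, Foxi1, Foxd4, Foxr2, Foxi2 and Foxb1, none of which exceeded 22 counts in any library. One tested member, Foxb2, passed through its CTRL libraries alone. Among the 37 tested, 14 had both Znhit1_KO values above both CTRL values, and 3 had both below. Over all 24116 genes tested, 21.8% were higher and 21.3% lower in that sense, without overlap. The median log2 change of the 37 was 0.23, with quartiles of -0.08 and 0.51, against a median of 0.03 and quartiles of -0.31 and 0.33 over all genes tested. With libraries scaled to equal Sertoli marker levels the median of the 37 became -0.23 and that of all genes -0.43, so the sign of the family median depends on scaling; a scaling moves all genes alike, and the distance of 0.20 between these medians was kept. Without Znhit1_KO replicate 1 the family median was 0.10, against -0.07 for all genes. Leaving out CTRL replicate 2 gave 0.12, against 0.04 for all genes, a distance of 0.08, and leaving out CTRL replicate 1 gave a distance of 0.14. The number lower without overlap was 6 to 8 of 37 with any 1 library left out, where 32.2% to 37.4% of all genes were lower in that sense.

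The edgeR quasi-likelihood test with Benjamini-Hochberg adjustment called 0 of the 37 members and 0 of all genes, a background of 0%. At an unadjusted p under 0.05 there were 5 members higher and 1 lower, where all genes tested gave 2.99% higher and 7.75% lower. Limma-voom called 0 members at a background of 0%. DESeq2 called 2 higher and 0 lower, where it called 4.32% of all genes, 0.46% higher and 3.86% lower. Both were the 2 members, Foxa2 and Foxd2, that the authors' deposited table marks as higher. That table marks 3.5% of its genes, 0.277% higher and 3.22% lower, and it marks no forkhead gene as lower. These counts come from the contrast known when the family was taken up, and nothing is read from them.

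**Figure D2:**
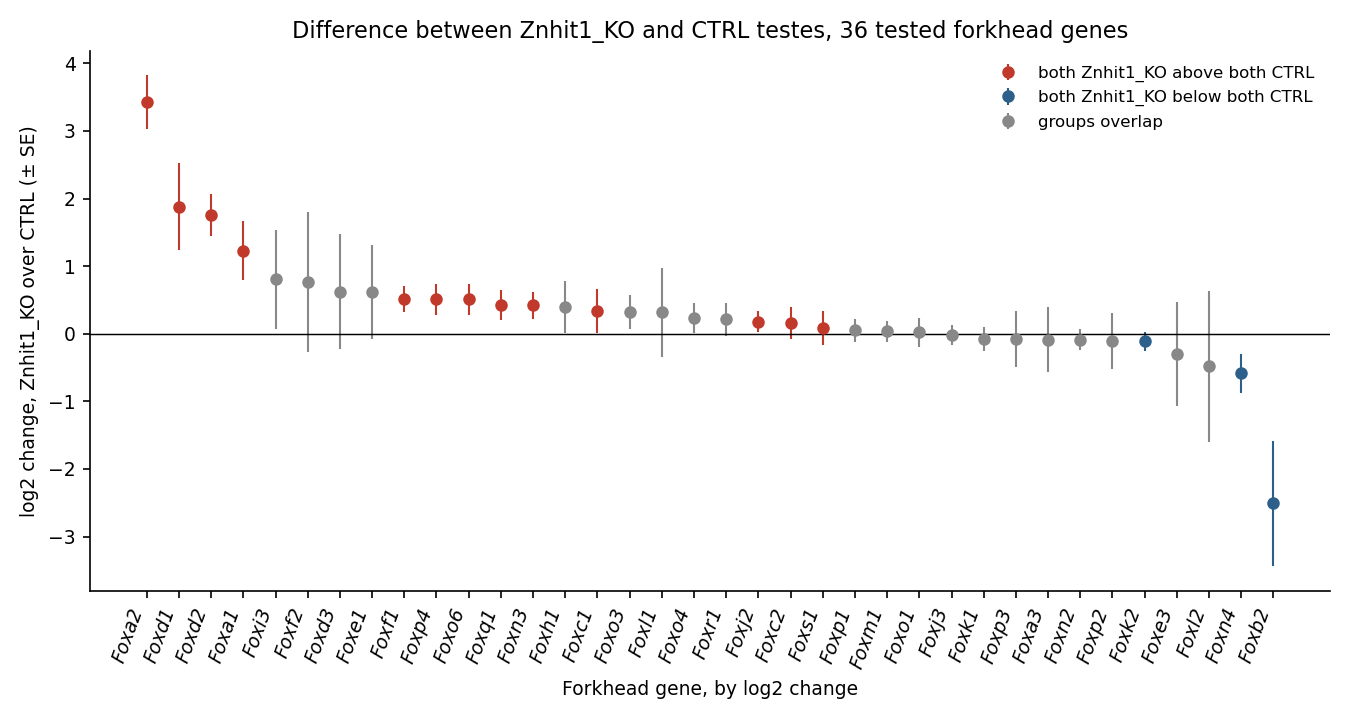
Log2 change between Znhit1_KO and CTRL for 36 of the 37 tested forkhead genes, ordered by size, with bars of 1 SE from the edgeR fit; red marks genes higher in both Znhit1_KO libraries, blue genes lower in both, and grey genes whose groups overlap. Foxa2 at 3.43 and Foxb2 at -2.51 stand at the ends, and the quartiles of the 37 are -0.08 and 0.51.

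Foxa2, the endoderm and liver pioneer factor gene, differed most. Foxa2 (ENSMUSG00000037025.11; chromosome 2, 148042877 to 148046969, minus strand, mm10) stood at 3.45 and 4.20 CPM in Znhit1_KO, against 0.281 and 0.428 CPM in CTRL. Both Znhit1_KO libraries lay far above both CTRL libraries. Its group means were 3.83 ± 0.530 CPM in Znhit1_KO and 0.355 ± 0.104 CPM in CTRL (SD, n = 2 each). The estimated counts behind these were 545 and 583 in Znhit1_KO, against 38 and 55 in CTRL. The difference was 10.8-fold, a log2 change of 3.43 (SE 0.397), and lay between 2.98 and 3.76 over the 11 alternative settings. Of all 24116 genes tested, 57 had a larger log2 change, 7 of them among the 17308 with a mean of at least 1 TPM, a level that Foxa2 reached through Znhit1_KO alone. The authors' deposited table gives Foxa2 a log2 change of 3.43 and marks it as higher.

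Foxd2, a gene of paraxial and kidney mesenchyme in mouse embryos, came next among members marked by the authors. Foxd2 (ENSMUSG00000055210.4; chromosome 4, 114906282 to 114908873, minus strand) stood at 4.72 and 6.49 CPM in Znhit1_KO, against 1.58 and 1.75 CPM in CTRL. The groups did not overlap, and the CTRL libraries were close to each other. Its means were 5.61 ± 1.25 CPM in Znhit1_KO and 1.67 ± 0.124 CPM in CTRL (SD, n = 2 each). The log2 change was 1.75 (SE 0.310), a 3.37-fold difference, with a range of 1.32 to 1.93 over the alternatives, and the authors' deposited table gives 1.75.

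Some relatives of both genes were also higher, at lower levels. Foxd1, a gene of kidney stroma (chromosome 13, 98354242 to 98359305, plus strand), stood at 0.918 and 0.936 CPM in Znhit1_KO, against 0.378 and 0.125 CPM in CTRL. Its log2 change was 1.88 (SE 0.642), between 1.29 and 2.88 over the alternatives, the highest of these being without CTRL replicate 1, the CTRL library in which Foxd1 was higher. Foxa1, which acts beside FOXA2 in liver and lung (chromosome 12, 57540628 to 57546916, minus strand), stood at 0.855 and 1.27 CPM in Znhit1_KO, against 0.429 and 0.475 CPM in CTRL, and its log2 change was 1.23 (SE 0.436), between 0.80 and 1.46. Both genes were higher in both Znhit1_KO libraries, and both had a mean under 1 TPM. Of the 14 tested members under 1 TPM, 4 had an absolute log2 change of at least 1. Among all tested genes at that level, 28.7% did. The third FOXA gene, Foxa3, stood at 0.386 and 0.468 CPM in Znhit1_KO, against 0.400 and 0.506 CPM in CTRL, and its groups overlapped (log2 change -0.09, SE 0.479). Within FOXD, Foxd3, a neural crest and pluripotency gene, stood at 0.310 and 0.130 CPM in Znhit1_KO, against 0.207 and 0.0779 CPM in CTRL, with overlapping groups (log2 change 0.62, SE 0.853), and Foxd4 did not pass the filter, at 8 and 8 counts in Znhit1_KO against 1 and 4 in CTRL. Foxa1 and Foxa2 of the 3 FOXA genes were thus higher without overlap, as were Foxd1 and Foxd2 of the 3 tested FOXD genes, while the Foxd4 counts were higher in both Znhit1_KO libraries but too low to measure a change.

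**Figure D3:**
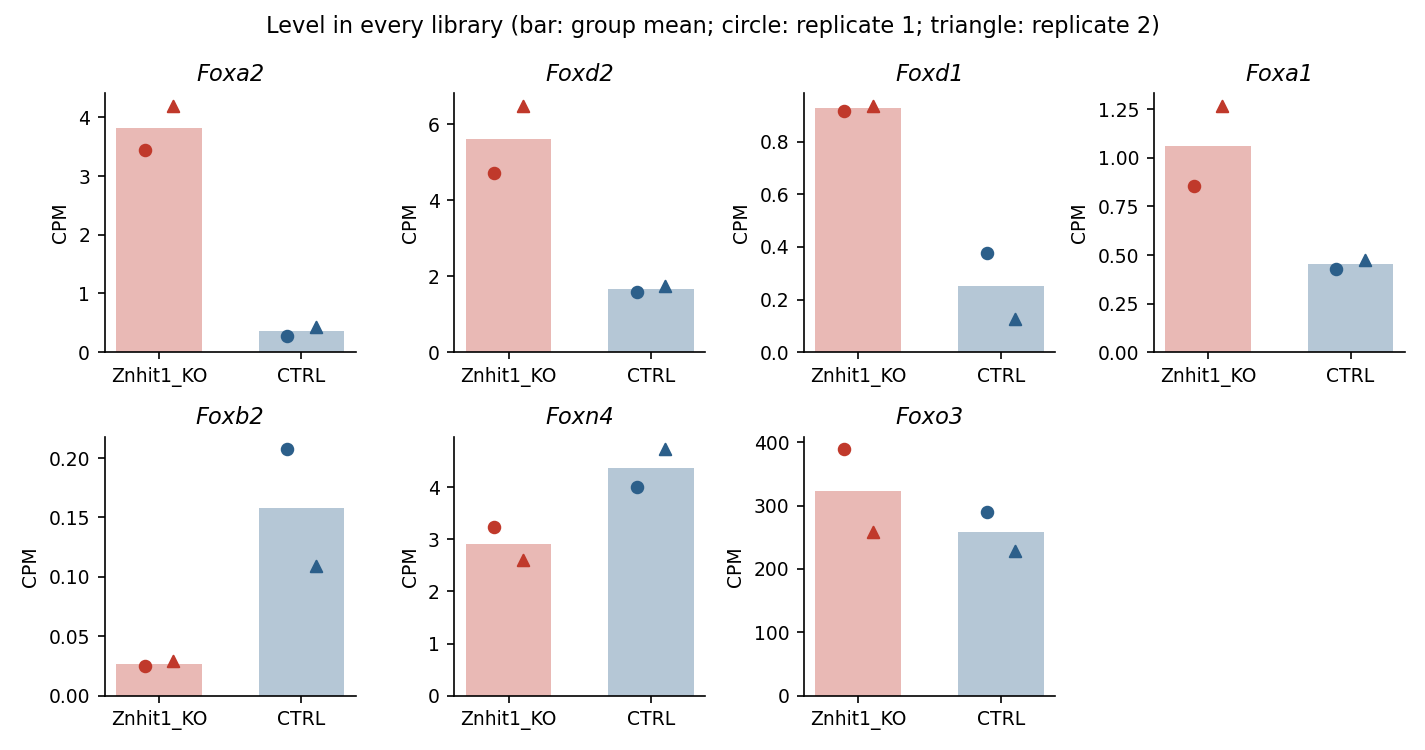
CPM in every library for 7 forkhead genes, Znhit1_KO left of CTRL in each panel; bars are group means from 0, circles replicate 1 and triangles replicate 2, and each panel has its own axis. Foxa2, Foxd2, Foxd1 and Foxa1 are higher in both Znhit1_KO libraries, Foxb2 and Foxn4 lower in both, and the groups of Foxo3, the most abundant member, overlap.

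The promoters of the 4 genes that stood above log2 1 in 2 subfamilies are shown, with that of Foxo3 for comparison as the most abundant member. Each runs from 250 bases before to 50 bases after the RefSeq start (build GRCm38.p6, which is mm10), 5′ to 3′ on the gene's strand, and capitals mark CG dinucleotides.
Foxa2, chr2:148046920-148047219, minus strand: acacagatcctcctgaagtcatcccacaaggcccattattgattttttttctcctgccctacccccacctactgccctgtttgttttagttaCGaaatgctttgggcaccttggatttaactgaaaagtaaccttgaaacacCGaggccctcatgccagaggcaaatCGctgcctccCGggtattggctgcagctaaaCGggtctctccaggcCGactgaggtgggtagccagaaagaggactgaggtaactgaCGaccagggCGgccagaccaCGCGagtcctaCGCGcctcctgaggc
Foxd2, chr4:114908849-114909148, minus strand: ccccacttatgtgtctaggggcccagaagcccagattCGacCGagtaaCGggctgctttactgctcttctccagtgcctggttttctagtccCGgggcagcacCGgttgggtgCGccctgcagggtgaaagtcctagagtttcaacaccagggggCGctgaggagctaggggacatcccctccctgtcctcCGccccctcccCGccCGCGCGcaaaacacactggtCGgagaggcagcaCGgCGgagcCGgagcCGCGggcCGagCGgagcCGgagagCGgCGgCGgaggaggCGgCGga
Foxa1, chr12:57546062-57546361, minus strand: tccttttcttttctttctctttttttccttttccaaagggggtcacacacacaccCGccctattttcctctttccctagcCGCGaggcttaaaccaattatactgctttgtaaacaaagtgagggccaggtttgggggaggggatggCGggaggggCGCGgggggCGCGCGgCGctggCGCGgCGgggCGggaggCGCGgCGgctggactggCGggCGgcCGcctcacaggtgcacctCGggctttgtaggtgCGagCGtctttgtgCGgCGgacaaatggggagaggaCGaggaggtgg
Foxd1, chr13:98353995-98354294, plus strand: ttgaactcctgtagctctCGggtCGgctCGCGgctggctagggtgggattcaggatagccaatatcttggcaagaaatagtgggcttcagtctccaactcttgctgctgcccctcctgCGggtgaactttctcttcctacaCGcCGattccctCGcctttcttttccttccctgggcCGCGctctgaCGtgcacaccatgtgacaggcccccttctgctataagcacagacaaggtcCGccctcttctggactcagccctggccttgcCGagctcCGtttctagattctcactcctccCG
Foxo3, chr10:42276646-42276945, minus strand: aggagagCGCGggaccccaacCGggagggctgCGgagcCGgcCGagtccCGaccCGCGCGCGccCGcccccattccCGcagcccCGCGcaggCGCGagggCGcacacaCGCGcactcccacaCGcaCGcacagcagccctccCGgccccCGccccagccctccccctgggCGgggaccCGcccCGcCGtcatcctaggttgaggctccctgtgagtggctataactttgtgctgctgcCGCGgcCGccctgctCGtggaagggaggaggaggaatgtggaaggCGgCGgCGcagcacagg

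The windows of Foxd2, Foxa1 and Foxo3 were rich in CG, and those of Foxa2 and Foxd1 less so. The Foxa2 window held 12 CG dinucleotides and Foxd1 15, against 26 in Foxd2, 26 in Foxa1 and 35 in Foxo3. The ratio of observed to expected CG was 0.548 for Foxa2, 0.624 for Foxd1, 0.758 for Foxd2, 0.929 for Foxa1 and 0.834 for Foxo3. RefSeq windows were found for 28 of the 43 members, and 18 of these, 64.3%, had a ratio of at least 0.6, against 35.8% of all 32851 windows in the table. Foxa2 is the 1 gene of the 5 below that ratio. The Foxa1 window is drawn around a RefSeq start that lies 805 bases inside the gene as GENCODE draws it. Of the 28 windows, 19 have a RefSeq start within 100 bases of the GENCODE gene start. The RefSeq starts used for Foxj3, Foxp1 and Foxn3 lie 2657, 1728 and 113508 bases from it. The forkhead core was searched on both strands in 4 forms. The first form was TGTTTAC, taken as the usual core. A second form searched was TATTTAC, also on both strands. The third form searched was TGTTTGC, likewise on both strands. The last form searched was TATTTGC, and a given stretch can match only 1 of the 4. The core occurred in 13.5% of all windows and in 3 of the 28 member windows, those of Foxa1, Foxj3 and Foxp1. In the Foxa1 window it reads GTAAACA, on the strand shown, and begins at position -141 from the RefSeq start.

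Among genes at low levels, Foxb2 was lower without overlap. Foxb2 stood at 0.0253 and 0.0288 CPM in Znhit1_KO, against 0.207 and 0.109 CPM in CTRL, with a log2 change of -2.51 (SE 0.931). The Foxb2 value rests on 4 and 4 counts in Znhit1_KO against 28 and 14 in CTRL, so its size is not well fixed. Foxn4, a gene of retina and spinal interneurons, was lower without overlap, at 3.23 and 2.60 CPM in Znhit1_KO, against 4.01 and 4.73 CPM in CTRL, with a log2 change of -0.58 (SE 0.289), or -1.06 under Sertoli scaling. In all, 6 of the 37 tested members had an absolute log2 change of at least 1, and 13.7% of all genes tested did.

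None of the 17 members with a mean of at least 10 TPM had an absolute log2 change of 1 or more; their changes ran between -0.11 and 0.51, while 4.09% of all tested genes at that level passed 1. The median absolute change of these 17 was 0.21, against 0.22 for all 10724 genes at that level. The signed median was 0.21, with 13 of the 17 positive, against 0.00045 for all genes at that level. Over all genes tested, at any level, 53.0% were positive. Under Sertoli scaling Foxp4, Foxo6 and Foxf1 stayed positive, each at 0.04, and the rest of the 17 were negative. The median of all genes was -0.43 under that scaling, so these signs depend on scaling. Of the 17, 6 were higher without overlap, where 22.8% of genes at that level were.

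Among the FOXO genes, Foxo6, which is best known from brain, was higher without overlap, at 40.3 and 30.97 CPM in Znhit1_KO, against 28.1 and 21.96 CPM in CTRL, with a log2 change of 0.51 (SE 0.226). Foxo3 stood at 389 and 258 CPM in Znhit1_KO, against 289.5 and 229 CPM in CTRL. Replicate 1 was above replicate 2 in each group, and the groups overlapped (log2 change 0.32, SE 0.248). Foxo1 stood at 153 and 113 CPM in Znhit1_KO, against 146 and 117 CPM in CTRL, with overlapping groups and a log2 change of 0.02 (SE 0.211). Foxo4, an X-linked gene, stood at 18.5 and 16.1 CPM in Znhit1_KO, against 16.4 and 13.01 CPM in CTRL, with overlapping groups (log2 change 0.23, SE 0.220). In CPM, replicate 1 exceeded replicate 2 in both groups for 12 of the 23 members with a mean of at least 1 TPM, all 4 FOXO genes among them. Signs of Foxo1, Foxo3 and Foxo4 turned negative under Sertoli scaling, and that of Foxo6 did not, at 0.04. Without Znhit1_KO replicate 1 the log2 change was -0.04 for Foxo3 and -0.25 for Foxo1. Without CTRL replicate 2 that of Foxo1 was -0.13.

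Upstream of FOXO, 20 genes of PI3K and AKT signalling had a median log2 change of 0.09, with 12 positive, 0 called by edgeR with adjustment, and 1 higher and 0 lower at an unadjusted p under 0.05. That 1 was the kinase gene Akt1, at 155 and 172 CPM in Znhit1_KO, against 110.0 and 129.8 CPM in CTRL (log2 change 0.45, SE 0.159). The insulin receptor gene Insr (log2 change 0.39, SE 0.202), its substrate gene Irs1 (log2 change 0.40, SE 0.232) and the 14-3-3 gene Ywhag (log2 change 0.40, SE 0.197) had the next lowest p values. Of 20 FOXO target genes, 19 were tested, with a median of 0.07, 13 positive, 0 called, and 1 higher and 0 lower at an unadjusted p under 0.05. That 1 was the cell cycle inhibitor gene Cdkn1a, at 12.5 and 10.5 CPM in Znhit1_KO, against 7.56 and 6.14 CPM in CTRL (log2 change 0.75, SE 0.243). The polo-like kinase gene Plk2 (log2 change 0.42, SE 0.182) and the DNA damage gene Gadd45a (log2 change 0.43, SE 0.187) were also higher in both Znhit1_KO libraries, and Pck1, an enzyme gene of glucose synthesis, was lower in both (log2 change -0.85, SE 0.391). These medians stand beside 0.03 over all genes tested, of which 53.0% were positive, and Rictor is in both lists. At an unadjusted edgeR p under 0.05, 2.99% of all genes tested were higher and 7.75% lower.

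Foxm1, the mitotic regulator, stood at 93.7 and 87.8 CPM in Znhit1_KO, against 94.2 and 82.9 CPM in CTRL, with overlapping groups (log2 change 0.04, SE 0.151). Its 20 listed mitotic targets had a median log2 change of 0.08, with 11 positive, 0 called by edgeR and 0 at an unadjusted p under 0.05 in either direction. Over all genes tested the median was 0.03 and 53.0% were positive, and at that p 2.99% were higher and 7.75% lower. Aurkb (log2 change 0.39, SE 0.178) and Cdk1 (log2 change 0.43, SE 0.235), kinase genes of mitosis, had positive values and Birc5 (log2 change -0.36, SE 0.169) and Bub1 (log2 change -0.29, SE 0.165) negative ones.

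In the FOXJ, FOXK, FOXN and FOXP subfamilies, Foxp4 and Foxn3 were higher without overlap and Foxn4, given above, lower. Foxj3, the FOXJ gene of highest level, stood at 115 and 127 CPM in Znhit1_KO, against 120.1 and 125 CPM in CTRL, so the groups overlapped (log2 change -0.02, SE 0.142). Foxj2 stood at 63.98 and 55.2 CPM in Znhit1_KO, against 52.1 and 53.03 CPM in CTRL, higher in both Znhit1_KO libraries by a log2 change of 0.18 (SE 0.158). Foxj1, the ciliogenic factor gene that is not a member, stood at 5.98 and 4.12 CPM in Znhit1_KO, against 3.58 and 2.34 CPM in CTRL, with a log2 change of 0.77 (SE 0.358). The summed level of 19 flagellum and cilium genes was 507 and 704 CPM in Znhit1_KO, against 1181 and 2144 CPM in CTRL, so Foxj1 and this list differed in opposite directions.

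Foxk1 and Foxk2 encode repressors of starvation-response genes. Foxk2 stood at 122 and 111 CPM in Znhit1_KO, against 125 and 127 CPM in CTRL, lower in both Znhit1_KO libraries by less than its SE (log2 change -0.11, SE 0.141), and Foxk1 stood at 91.8 and 70.4 CPM in Znhit1_KO, against 82.99 and 88.1 CPM in CTRL, with overlapping groups (log2 change -0.08, SE 0.183). Foxn3, a checkpoint-related gene, was higher without overlap, at 153 and 121 CPM in Znhit1_KO, against 115 and 89.98 CPM in CTRL (log2 change 0.42, SE 0.201). Foxn2 stood at 53.2 and 46.9 CPM in Znhit1_KO, against 54.95 and 51.5 CPM in CTRL, with overlapping groups (log2 change -0.09, SE 0.158). Foxp4 was higher without overlap, at 148 and 108 CPM in Znhit1_KO, against 102 and 77.7 CPM in CTRL (log2 change 0.51, SE 0.231). Foxp1 stood at 37.3 and 36.3 CPM in Znhit1_KO, against 32.3 and 38.8 CPM in CTRL, with overlapping groups (log2 change 0.05, SE 0.175). On the authors' TPM scale 4 members changed sides of the overlap: Foxp1 and Foxr1 were higher in both Znhit1_KO libraries, whereas Foxk2 and Foxs1 overlapped. Foxn3 and Foxj2 turned negative under Sertoli scaling and Foxp4 did not, at 0.04.

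Foxp3, the defining factor of regulatory T cells, was near the floor at 0.601 and 0.742 CPM in Znhit1_KO, against 0.659 and 0.763 CPM in CTRL (log2 change -0.08, SE 0.415). The 9 T cell markers summed to 3.94 and 4.53 CPM in Znhit1_KO, against 7.73 and 7.49 CPM in CTRL, with 4 of the 6 tested markers positive. That gap came from Cd3e, at 0.633 and 0.836 CPM in Znhit1_KO, against 4.94 and 4.09 CPM in CTRL, since the other 8 markers summed to 3.31 and 3.69 CPM in Znhit1_KO, against 2.79 and 3.40 CPM in CTRL, with overlap. Foxp3 lies over Ppp1r3f, Gm36995 and Ccdc22 on the other strand, and no source used states whether libraries were stranded, so reads of Foxp3 and of those genes could not be separated. The same applies to Foxj3 with Frg2f1, Foxj2 with Gm26826, Foxb2 with Gm32341 and Foxl2 with Foxl2os. On the same strand, Flicr overlaps Foxp3, Tex52 overlaps Foxm1, and Gm20696 and Gm20705 overlap Foxp1. Strand could not separate the reads of these genes. Flicr stood at 1.49 and 1.66 CPM in Znhit1_KO, against 1.46 and 1.44 CPM in CTRL, above Foxp3 in every library.

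Foxf1, a visceral mesenchyme gene, was higher in both Znhit1_KO libraries. It stood at 29.5 and 24.03 CPM in Znhit1_KO, against 19.3 and 18.3 CPM in CTRL, with close CTRL libraries and a log2 change of 0.51 (SE 0.194). Foxq1, an epithelial factor gene, stood at 50.7 and 57.9 CPM in Znhit1_KO, against 33.3 and 47.2 CPM in CTRL, also without overlap (log2 change 0.43, SE 0.221). Foxs1, a pericyte gene, stood at 4.57 and 4.49 CPM in Znhit1_KO, against 4.33 and 4.25 CPM in CTRL; the groups parted by less than the SE (log2 change 0.08, SE 0.249). Foxc2 stood at 5.29 and 5.52 CPM in Znhit1_KO, against 4.75 and 4.95 CPM in CTRL, with a log2 change of 0.16 (SE 0.241), and Foxc1 had a log2 change of 0.34 (SE 0.329), both higher in both Znhit1_KO libraries. The 15 markers of undifferentiated spermatogonia, the cells of Foxc2 and Foxo1 in mouse testis, summed to 449 and 442 CPM in Znhit1_KO, against 383 and 438 CPM in CTRL. The 13 peritubular and stromal markers summed to 1668 and 1786 CPM in Znhit1_KO, against 1492 and 1564 CPM in CTRL, and 9 endothelial markers to 112 and 130.3 CPM in Znhit1_KO, against 88.5 and 108 CPM in CTRL. The part of these sums in the results was not tested. Signs of Foxq1, Foxs1, Foxc1 and Foxc2 turned negative under Sertoli scaling, and Foxf1 was at 0.04.

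Foxh1 stood at 7.25 and 11.4 CPM in Znhit1_KO, against 5.15 and 9.07 CPM in CTRL, with replicate 2 above replicate 1 in each group and overlapping groups (log2 change 0.39, SE 0.384). Foxr1 stood at 7.68 and 6.86 CPM in Znhit1_KO, against 6.93 and 5.62 CPM in CTRL, again with overlap (log2 change 0.21, SE 0.248). Foxi3, an ectodermal gene, stood at 2.54 and 1.40 CPM in Znhit1_KO, against 1.81 and 0.436 CPM in CTRL; its log2 change of 0.81 (SE 0.732) became 2.17 when CTRL replicate 1 was left out and 0.12 when CTRL replicate 2 was. The remaining tested members, Foxe1, Foxe3, Foxf2, Foxl1, Foxl2 and Foxp2, had log2 changes between -0.48 and 0.76, each within its SE, and overlapping groups. Foxl2, the ovarian granulosa factor gene, had 34 and 7 counts in Znhit1_KO against 42 and 8 in CTRL.

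Some forkhead genes lie beside each other on a chromosome. On chromosome 13, Foxq1, Foxf2 and Foxc1 had log2 changes of 0.43, 0.76 and 0.34 in that order along the chromosome. Foxf2 was within its SE and its groups overlapped. Between Foxq1 and Foxf2, the noncoding genes Gm11377 (log2 change -2.22, SE 0.95) and 1700018A04Rik (log2 change -1.21, SE 0.87) were lower without overlap. Both were near the floor, with at most 0.29 CPM in any library. Foxd2 and Foxe3 start 17140 bases apart on chromosome 4; Foxd2 was higher while Foxe3 stood at 0.0886 and 0.252 CPM in Znhit1_KO, against 0.200 and 0.218 CPM in CTRL (log2 change -0.30, SE 0.774). Foxd2os, a noncoding gene that starts 384 bases from Foxd2 on the other strand, was higher without overlap, at 1.27 and 1.15 CPM in Znhit1_KO, against 0.778 and 0.366 CPM in CTRL (log2 change 1.08, SE 0.501). The next gene, Cmpk1, stood at 51.9 and 59.6 CPM in Znhit1_KO, against 51.2 and 54.7 CPM in CTRL (log2 change 0.07, SE 0.159). On chromosome 8, Foxf1, Foxc2 and Foxl1 had log2 changes of 0.51, 0.16 and 0.32 in that order along the chromosome. Mthfsd, between Foxf1 and Foxc2, was lower in both Znhit1_KO libraries (log2 change -0.31, SE 0.249). Fendrr, which starts 1276 bases from Foxf1 on the other strand, had overlapping groups (log2 change 0.20, SE 0.382). Beside Foxa1, Ttc6 starts 17197 bases away on the other strand and stood at 5.22 and 9.59 CPM in Znhit1_KO, against 18.98 and 45.4 CPM in CTRL (log2 change -2.12, SE 0.516), the opposite direction. Within 60000 bases of Foxa2 no other gene passed the filter. Among the tested neighbours of Foxd2 and Foxa1, Foxd2os was higher without overlap and Ttc6 lower without overlap, and for Foxa2 there was no neighbour to compare.

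**Figure D4:**
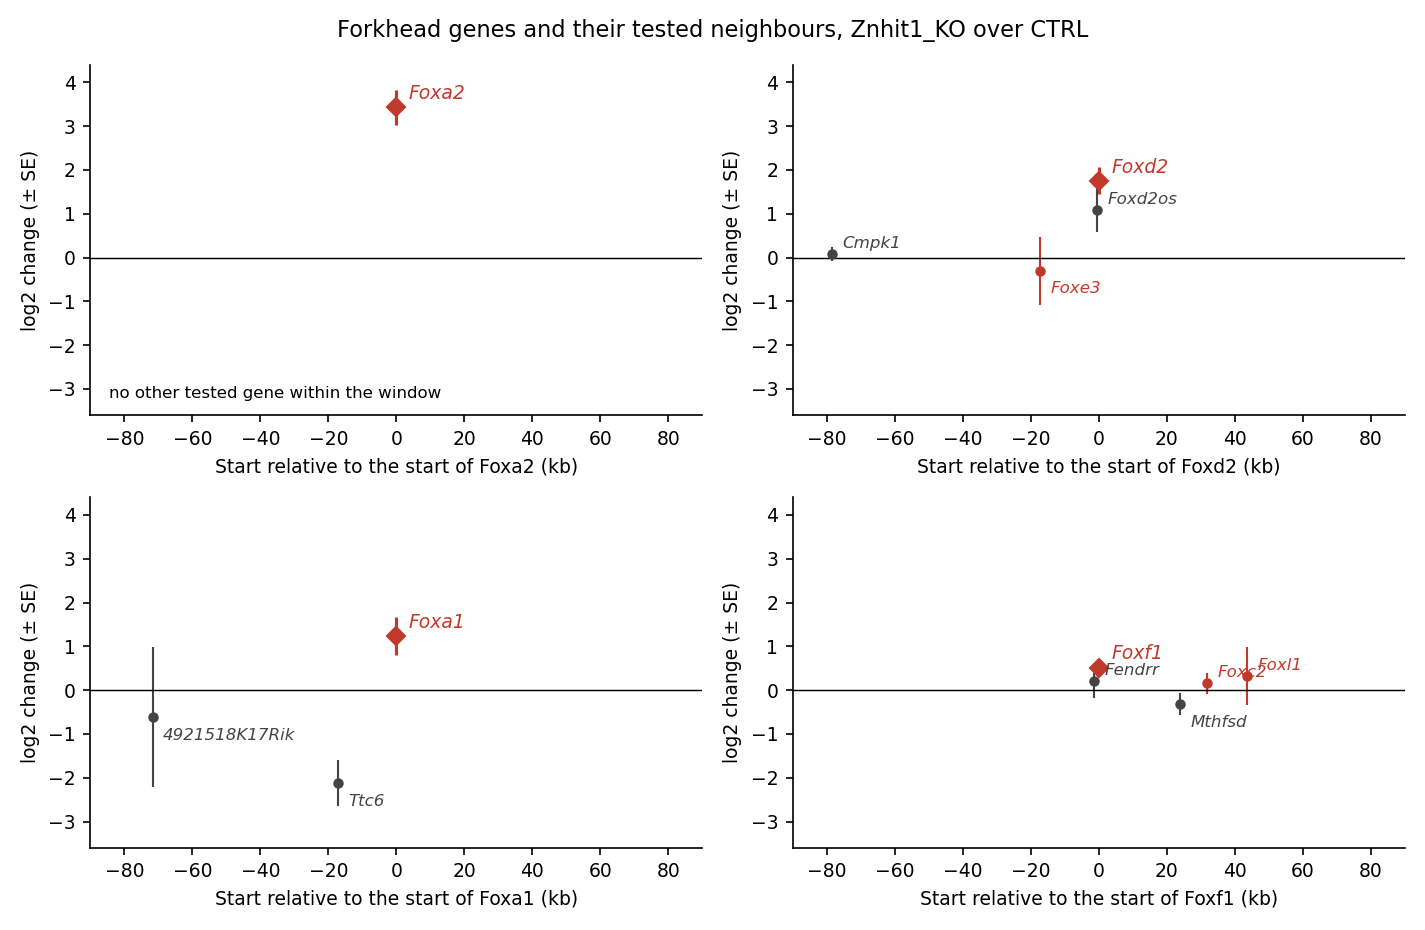
Log2 change with 1 SE for Foxa2, Foxd2, Foxa1 and Foxf1 (diamonds) and for tested genes within 60000 bases of them whose starts lie within 90 kb, by distance between starts along the forkhead gene's strand; red marks forkhead genes and grey other genes. Foxd2os sits beside Foxd2 at 1.08, Ttc6 at -2.12 lies opposite to Foxa1, and Foxa2 has no tested neighbour.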

How the data were processed

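Poly(A) RNA of mouse testes at postnatal day 14 was sequenced in 4 libraries. The submitters' processing notes name build mm10 and the tools HISAT2 2.2.1, StringTie 2.2.1, DESeq2 1.38.3 and cutadapt 2.5, with no settings or annotation. The authors deposited whole-number counts for 55335 genes, which sum to more than the reads stated and were taken as estimates, so counting precision is overstated. The authors' deposited comparison table of 25236 genes holds, per the file headers, TPM, a mean normalised signal, log2 fold changes with errors, Wald scores and p-values.

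Deposited counts were fitted with edgeR 4.0.16 (R 4.3.3): quasi-likelihood F-test, TMM, filterByExpr (10 counts), genotype only, Benjamini-Hochberg at 0.05 over 24116 genes. SEs come from the F statistic. With 2 libraries per group, p-values measure the spread between these samples only. DESeq2 1.42.0, limma 3.58.1 and other scalings were alternatives, and the fit was tested on simulated data. Positions come from GENCODE M21 (mm10), promoters from RefSeq.

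The values of 1 tested member and 2 genes of the endoderm list are not reported here. The duct and the endoderm list were added after the values were seen. The members and gene lists were chosen with earlier results of these data known. Members with a mean of at least 1 TPM, marked by the authors, or without overlap at an absolute log2 change of at least 0.5 were given in every library; of each pathway list the 4 lowest p values were named.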

Additional observations from a re-analysis of the deposited data

How the results depend on the processing

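Calls over all genes depended on the test. EdgeR called 0 genes under every scaling and filter tried, while DESeq2 called 1041, 111 of them higher. EdgeR with a replicate block called 2737 of 24116 genes, of which 814 were higher. Of the 37 tested forkhead genes it called 6 as higher and 0 as lower, and nothing is read from this count. With 1 library left out, edgeR called between 0 and 754 genes, the 754 without CTRL replicate 1. Same-numbered libraries deviated together (r = 0.421 across genes), but the labels do not say that they share a source, so the block is given here alone. The forkhead median was -0.23 under Sertoli scaling and between 0.10 and 0.20 with 1 library left out. Under Sertoli scaling 6 members were higher and 17 lower without overlap, where 3.9% of all genes were higher and 49.9% lower. With 1 library left out, 16 to 23 were higher and 6 to 8 lower, where 30.5% to 39.9% of all genes were higher and 32.2% to 37.4% lower, since 3 libraries overlap less often by construction. Of the 37 tested members, 14 kept their sign under all 11 alternatives, Foxa1, Foxa2, Foxb2, Foxd1, Foxd2, Foxf1, Foxn4, Foxo6 and Foxp4 among them, and 14 others changed sign under Sertoli scaling. Leaving out 1 library changed the sign of 3 to 8 of the 37 members, depending on the library. Among members with an absolute log2 change of at least 0.5, Foxd3 changed sign without Znhit1_KO replicate 1 and Foxf2 without CTRL replicate 2. The cause of the other changes was not tested. Members under 1 TPM rest on few counts.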

Other observations

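FOXA factors are known from endoderm and from ducts, so genes of those tissues were looked at after the forkhead values had been seen. Of 13 genes of the rete testis, efferent duct and epididymis, the 6 epididymal genes Adam7, Crisp1, Defb12, Lcn8, Lcn9 and Ovch2 had 0 counts in every library. The list summed to 10.9 and 4.07 CPM in Znhit1_KO, against 4.81 and 2.47 CPM in CTRL. The duct factor gene Pax8 stood at 4.04 and 0.728 CPM in Znhit1_KO, against 1.19 and 0.553 CPM in CTRL, and Pax2 at 4.16 and 0.857 CPM in Znhit1_KO, against 2.41 and 0.0779 CPM in CTRL, with overlapping groups. The other tested genes of the list were keratin genes and Cdh16, a cadherin gene. Krt18 (log2 change 1.10, SE 0.561), Krt19 (log2 change 0.78, SE 0.626) and Cdh16 (log2 change 2.17, SE 0.857) were higher without overlap, and Krt7 and Krt8 overlapped. All 3 were near the floor. Cdh16 stood at 0.931 and 0.295 CPM in Znhit1_KO, against 0.200 and 0.0701 CPM in CTRL. Krt18 had at most 0.47 CPM and Krt19 at most 0.37 CPM in any library. Over all genes tested, 21.8% were higher and 21.3% lower without overlap. Of the endoderm and liver genes, Sox17, also an endothelial gene, was higher without overlap at 6.30 and 4.67 CPM in Znhit1_KO, against 3.09 and 4.48 CPM in CTRL, and Afp was lower without overlap at 1.48 and 1.61 CPM in Znhit1_KO, against 2.36 and 2.13 CPM in CTRL. Gata6 stood at 67.6 and 52.4 CPM in Znhit1_KO, against 57.7 and 43.6 CPM in CTRL, with overlap. Hnf4a had at most 0.179 CPM in any library and Alb at most 0.101 CPM. Their part in the Foxa2 result was not tested.

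A pair of neighbours is named here after their values were seen. Gm12688, a noncoding gene that starts 1316 bases from Foxd3 on the other strand, had 24 and 21 counts in Znhit1_KO and 0 and 0 in CTRL, while the groups of Foxd3 overlapped. Gm12688 passed the filter through its Znhit1_KO libraries alone, at no more than 0.152 CPM, so nothing is read from its difference. Slc2a3, a glucose transporter gene, starts 18274 bases from Foxj2. It stood at 101 and 156 CPM in Znhit1_KO, against 307 and 785 CPM in CTRL (log2 change -2.09, SE 0.488). The log2 change of Foxj2 was 0.18 (SE 0.158) and turned to -0.29 under Sertoli scaling. Of 131 distinct tested genes within 60000 bases of a member, 18 had an absolute log2 change of at least 1. The 131 include the members Foxd2, Foxe3, Foxf1, Foxc2 and Foxl1, which lie beside another member. Foxd2 and Gm12688 are among the 18. Over all genes tested, 13.7% did.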
